A study of Mus musculus with 3 samples.

Results

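Aminoacyl-tRNA synthetases, the enzymes that load each amino acid onto its tRNA, were followed as a family of 36 genes in 3 untreated mammary tumours, all from FVB-MMTV-Neu mice. The members were taken by gene symbol from a list of 20 cytosolic and 16 mitochondrial enzymes, and all 36 were among the 47480 symbols of the deposited tables. In this strain the mouse mammary tumour virus promoter drives a Neu (Erbb2) transgene in mammary epithelium. Per the labels' protocols the tumours were placed orthotopically in syngeneic hosts, grew to 5 mm and were left for 7 days with no treatment, while the series' design text has them come from untreated MMTV-Neu mice. They form 1 group with no control and are called tumours 1, 2 and 3 in deposition order. The labels do not say whether they came from separate donors, so the spread between them may be partly technical. Each tumour gave 1 library, so no difference between tumours has a replicate check.

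Libraries held 47449153, 11388769 and 17147394 estimated counts in tumours 1, 2 and 3. Levels are given as CPM, counts scaled to a library total that was adjusted by the trimmed mean of M values (TMM), and, where genes are compared with each other, as CPM per kilobase of the longest annotated transcript. A filter on low counts kept 12710 genes, among them 35 of the 36 members. The exception was the mitochondrial prolyl enzyme Pars2, with 541, 6 and 41 counts. Tumour 1 was sequenced in lane 1 and tumours 2 and 3 in lane 5, so lane and tumour 1 cannot be told apart. Luminal markers (Krt8, Krt18, Epcam and 5 more) summed to 2228, 1662 and 2542 CPM. Their median log2 difference of tumour 1 from the mean of the others was 0.85, beside 0.11 for all genes. Single luminal genes ran from 3.53 for Cldn4 to -1.26 for Cldn7. The 8 skeletal muscle markers summed to 4.87, 49850 and 22220 CPM, with 2 to 199 counts per gene in tumour 1 and none at 0 there. For the 3 of them past the filter the median log2 difference of tumour 1 was -11.95. Fibroblast markers summed to 3989, 6462 and 3483 CPM, endothelial markers to 138, 1029 and 370 CPM, adipocyte markers to 282, 204 and 147 CPM and leukocyte markers to 634, 529 and 550 CPM. The median log2 differences of tumour 1 in these 4 lists were -0.39, -0.49, 0.71 and -0.14, beside 0.11 for all genes. Single genes, picked out after their values were seen, carried some sums. Pecam1 was at 56.45, 775 and 231 CPM while Tek, also endothelial, was at 5.87, 6.46 and 5.59 CPM, and Lyz2 was at 478, 222.5 and 264 CPM while Csf1r, also of leukocytes, was at 82.5, 229.8 and 203 CPM. The part of these cell types in the results was not tested. In such bulk tissue fewer cells of a type and less RNA per cell cannot be told apart.

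Synthetases fall into classes I and II by the fold of the catalytic domain. In the cytosol several of them are held in the multisynthetase complex, built on the scaffold proteins Aimp1, Aimp2 and Eef1e1, while the others work free of it. Mitochondria use a separate nuclear-encoded set, except that Gars and Kars each encode the enzyme of both compartments. When tRNAs stay uncharged, the kinase Gcn2 (Eif2ak4) phosphorylates eIF2alpha, and the factor Atf4 then activates amino acid transport, amino acid synthesis and many cytosolic synthetase genes through a composite C/EBP-ATF response element. Expression of Wars is also induced by interferon gamma.

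The core of that element was looked for in the members' promoters. RefSeq promoter windows (GRCm38.p6), which reach from before the annotated start into the first bases of the transcript, matched 12 of 20 cytosolic and 14 of 16 mitochondrial members. On either strand, TGATGNAA occurred in 5 of the 12 cytosolic members and in 0 of the 14 mitochondrial members, compared with 3.97% of 32851 windows of all genes. The 5 windows are shown because they hold this match. Capitals mark it, as TGATGCAA or, where it lies on the other strand, as TTGCATCA or TTTCATCA, and positions count from the annotated start as 0. The Aars stretch is chr8:111033707-111033766, plus strand, with the match at bases -112 to -105, and a further Aars match at 9 to 16 is not shown. The Gars stretch is chr6:55037941-55038000, plus strand, with the match at -30 to -23. For Iars it is chr13:49682090-49682149, plus strand, at 7 to 14, for Tars chr15:11399649-11399708, minus strand, at -15 to -8, and for Yars chr4:129189863-129189922, plus strand, at 3 to 10.
Aars: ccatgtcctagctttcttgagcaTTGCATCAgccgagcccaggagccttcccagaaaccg
Gars: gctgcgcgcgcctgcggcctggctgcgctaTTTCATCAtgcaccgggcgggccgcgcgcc
Iars: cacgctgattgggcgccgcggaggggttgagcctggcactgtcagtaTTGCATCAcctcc
Tars: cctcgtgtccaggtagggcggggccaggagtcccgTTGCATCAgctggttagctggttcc
Yars: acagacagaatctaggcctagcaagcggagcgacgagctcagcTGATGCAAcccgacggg

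The E-box CACGTG, a site for Myc and related factors, was in 4 of 12 cytosolic and 1 of 14 mitochondrial members (7.15% of all windows). The core motif of NRF1, a factor of nuclear-encoded mitochondrial genes, was in 3 of 12 and 2 of 14 (4.60% of all windows). No match of one motif overlapped a match of another in these members' windows. A match is a description of these windows and does not show that a factor binds there. All 5 genes with the element were lowest in tumour 2, as were 15 of the 20 cytosolic members (75%), 24 of the 36 members (66.7%) and 39.6% of all genes past the filter. Their ranges differed in size, with Iars and Tars the narrowest of all cytosolic members and Gars the widest, and whether they moved together was not tested.

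Per kilobase, the median transcript level of cytosolic members was several-fold above that of mitochondrial members in each tumour. The median member stood at 21.2, 14.3 and 20.01 CPM per kb in the cytosolic group and at 5.08, 2.03 and 2.85 CPM per kb in the mitochondrial group. The difference of the median log2 values was 2.06, 2.80 and 2.78, or 2.55 ± 0.42 (SD, n = 3), which corresponds to 5.85-fold. It was present in 3 of 3 tumours and smallest in tumour 1. Summed CPM went the other way in tumours 2 and 3 through Lars2, as set out below.

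By the mean of the 3 tumours, Sars, the seryl enzyme, led the cytosolic group, with 45.7, 178 and 128 CPM per kb in tumours 1, 2 and 3. It was followed by Farsa, the catalytic subunit of the phenylalanyl enzyme, at 10.7, 78.0 and 50.5 CPM per kb. Tumour 1 was the lowest of the 3 for both genes. The valyl enzyme Vars ran the other way, at 62.0, 28.4 and 48.4 CPM per kb. Asparaginyl Nars was even, at 48.5, 37.7 and 39.0 CPM per kb, as was Farsb, the second phenylalanyl subunit, at 36.3, 30.5 and 40.3 CPM per kb. Kars, which serves cytosol and mitochondria, was at 28.0, 45.6 and 48.2 CPM per kb. At the low end by the mean were Dars with 10.6 ± 10.3 CPM per kb and Mars with 7.82 ± 3.63 CPM per kb (SD, n = 3). In tumour 1 alone the order differed. There Vars and Nars were above Sars, only Cars was below Farsa, and Dars was at 22.4 CPM per kb, above the group's median. Of the 19 steps between neighbours in the order of means, 18 were smaller than the larger SD of the pair. The step from Sars to Farsa was the exception.

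The values of Lars2 are set out separately. Apart from it, the threonyl enzyme Tars2 led the mitochondrial group by the mean of the 3 tumours, at 10.3, 19.02 and 13.8 CPM per kb. Next by the mean were the seryl enzyme Sars2, at 11.8, 13.2 and 14.9 CPM per kb, and cysteinyl Cars2, at 4.63, 7.77 and 7.38 CPM per kb. In tumour 1 alone Sars2, Iars2 and Rars2 were above Tars2, and Vars2, Yars2 and Hars2 were also above Cars2. By their means, Tars2 and Sars2 lay among the lower cytosolic members. Methionyl Mars2 had the lowest mean, at 0.648 ± 0.196 CPM per kb (SD, n = 3), over a transcript of 11294 bases. In the order of means 12 of 15 neighbouring steps were within the larger SD.

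**Figure D1:**
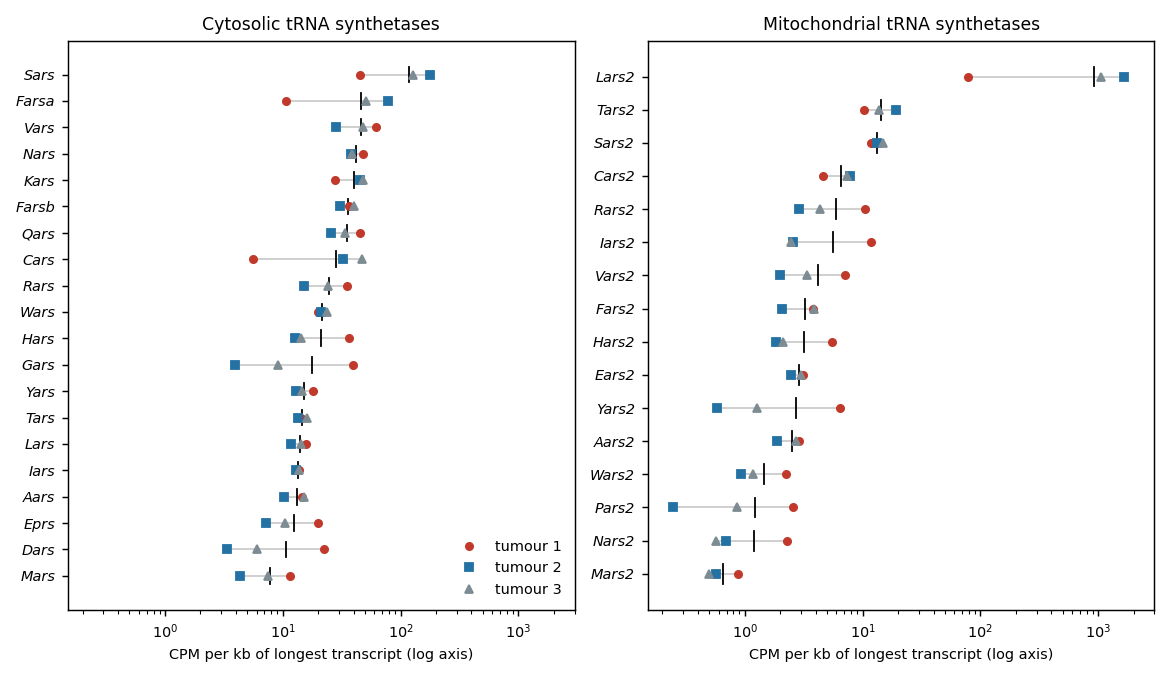
Level of each synthetase gene in CPM per kb of its longest transcript (log axis), with 1 point per tumour and a black tick at the mean of the 3 tumours. Cytosolic means run from 7.82 (Mars) to 117 (Sars) and mitochondrial means from 0.648 (Mars2) to 14.4 (Tars2), with Lars2 far to the right of both at 928.

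Set against the enzyme for the same amino acid in the other compartment, the cytosolic gene was higher per kilobase in 3 of 3 tumours for 11 of 13 amino acids. The asparaginyl ratio was the highest in each tumour, with Nars over Nars2 at 21.1, 54.6 and 68.1. For tyrosine, Yars over Yars2 was 2.81, 22.6 and 11.5, and for isoleucine, Iars over Iars2 was 1.16, 5.07 and 5.50. Tumour 1 had the lowest ratio in 10 of the 13. The exceptions to cytosolic excess were threonine, with Tars over Tars2 at 1.40, 0.707 and 1.16, and leucine, with Lars over Lars2 at 0.201, 0.00721 and 0.0134.

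The steadiest ratio was that of Hars over Hars2, at 6.59, 6.95 and 6.75. These histidyl enzymes are divergent neighbours on chromosome 18, whose annotated genes overlap by 198 bases. Hars was at 72.7, 25.2 and 28.4 CPM and Hars2 at 18.5, 6.09 and 7.06 CPM, so that each was highest in tumour 1 by close to the same factor while their ratio hardly changed. They share 165 words of 31 bases, so some reads could belong to either gene.

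**Figure D2:**
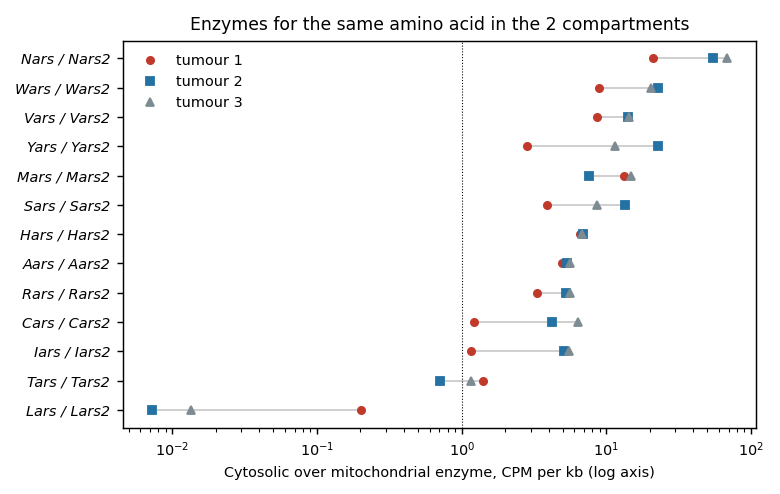
Ratio of the cytosolic to the mitochondrial enzyme for the same amino acid, in CPM per kb (log axis), with 1 point per tumour and a dotted line at equal levels. The ratio is above 1 in every tumour for 11 of 13 amino acids, tumour 1 is often the lowest, and Lars over Lars2 is far below 1.

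In the multisynthetase complex, the 8 enzymes summed to 601, 387 and 483.8 CPM. Tumour 1 was highest for 7 of them, compared with 5986 of 12710 genes, and tumour 2 lowest for 7, compared with 39.6% of all genes and 8 of the 12 cytosolic members outside the complex. The 7 highest in tumour 1 include Iars, which was level in tumours 1 and 3 to the digits given. Iars is also among the 7 lowest in tumour 2, though its Poisson intervals in tumours 1 and 2 overlapped. The bifunctional glutamyl-prolyl enzyme Eprs was at 113, 40.6 and 58.6 CPM, glutaminyl Qars at 138, 78.8 and 104 CPM, and arginyl Rars at 74.1, 31.9 and 51.4 CPM. Methionyl Mars, at 35.6, 13.4 and 22.9 CPM, followed the same order, with tumour 1 above tumour 3 and tumour 3 above tumour 2. Leucyl Lars (63.2, 47.1 and 56.6 CPM) kept that order in a narrow range. Isoleucyl Iars, at 60.6, 57.1 and 60.6 CPM, was the most even member of the family, and its counts did not depart from the scaled library totals (chi-square test, Benjamini-Hochberg adjusted p = 0.48).

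Aspartyl Dars (chromosome 1, 128363707 to 128417368) was the complex member farthest apart. It had 48.6 CPM in tumour 1 (95% Poisson interval 47.0 to 50.3) against 7.33 CPM (5.58 to 9.46) and 13.0 CPM (11.3 to 14.9), or 3365, 59 and 205 counts. Kars was the only one lower in tumour 1, at 67.6, 110.2 and 117 CPM. The scaffold genes kept tumour 2 lowest, with Aimp1 at 53.3, 28.2 and 44.7 CPM, Aimp2 at 43.8, 18.02 and 36.2 CPM, and Eef1e1 at 33.4, 20.3 and 38.3 CPM.

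Outside the complex, the fold ranges of the 12 cytosolic members ran from 1.19 for Tars to 10.2 for Gars. Vars (2.18) and Hars (2.88) lay between the ranges described here as narrow and wide. Gars, the glycyl enzyme of both compartments (chromosome 6, 55038007 to 55079500), was at 94.6, 9.32 and 21.9 CPM, a 10.2-fold range with no overlap of the Poisson intervals. Cysteinyl Cars (chromosome 7, 143557230 to 143600090) went the opposite way, at 18.1, 105 and 150.4 CPM. Sars was at 163, 635 and 456 CPM, so that tumour 1 lay below both others by more than 2-fold for both genes.

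The phenylalanyl subunits, which form a single enzyme, did not vary alike. Farsa was at 35.6, 260.5 and 169 CPM, while Farsb stayed at 73.9, 62.1 and 82.0 CPM. The ratio of Farsa to Farsb in CPM was 0.482, 4.19 and 2.06 in tumours 1, 2 and 3. Transcript length cancels from the change in this ratio only if each gene's mix of transcripts was the same in the 3 tumours, which was not tested. Length does not cancel from the size of the ratio, since the longest Farsa transcript has 3341 bases and its longest protein-coding one 1826.

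Narrow ranges were seen for threonyl Tars at 58.8, 55.1 and 65.7 CPM and for tryptophanyl Wars at 57.4, 60.7 and 69.0 CPM. Wars thus varied 1.20-fold and was lowest in tumour 1. The interferon gamma response list had 11 of 12 genes past the filter. Its median log2 difference between tumour 1 and the mean of the others was -2.65, beside 0.11 for all genes. Whether Wars follows this list was not tested. In that list Irf1 was at 48.3, 709 and 544 CPM, B2m at 166, 397 and 640 CPM, Psmb8 at 24.6, 158 and 269 CPM, and Cxcl9 at 2.37, 14.0 and 75.3 CPM. Alanyl Aars (83.2, 58.5 and 87.1 CPM), Yars (52.1, 37.9 and 42.5 CPM) and Nars (133, 104 and 107 CPM) also had ranges of 1.49-fold or less. Up to 14.4% of the 31-base words of Aars and 14.7% of those of Iars also occur in transcripts of other genes, mainly of the neighbour Exosc6 and the predicted gene Gm4849.

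Of the mitochondrial enzymes, 6 of 15 past the filter (40%) were at least 2-fold higher in tumour 1 than in both other tumours, compared with 22.1% of all genes. Tyrosyl Yars2 (chromosome 16, 16302965 to 16309640) was at 17.9, 1.62 and 3.56 CPM, of which the value in tumour 2 rests on 13 counts (0.86 to 2.76 CPM). Isoleucyl Iars2 was at 64.6, 13.9 and 13.6 CPM, and 23.6% of its 31-base words also lie in transcripts of its neighbour Rab3gap2. Arginyl Rars2 was at 19.7, 5.34 and 8.14 CPM, valyl Vars2 at 31.6, 8.82 and 14.9 CPM, and asparaginyl Nars2 at 8.69, 2.61 and 2.16 CPM. Together with Hars2, these genes set tumour 1 apart while tumours 2 and 3 were within 2-fold of each other for all but Yars2. Pars2, below the filter, was at 7.82, 0.746 and 2.61 CPM, where the 6 counts of tumour 2 allow 0.274 to 1.62 CPM.

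Lars2 and Pars2 apart, the other mitochondrial members varied less. Glutamyl Ears2 was at 15.4, 12.2 and 14.7 CPM and its counts did not depart from the library totals (chi-square test, Benjamini-Hochberg adjusted p = 0.088), alanyl Aars2 was at 9.74, 6.34 and 9.03 CPM, and Sars2 at 22.1, 24.6 and 27.8 CPM. Mitochondria lack a glutaminyl enzyme and convert Glu-tRNA made by Ears2 with an amidotransferase. Its subunit genes, named here for that role and not by the naming rule, were Qrsl1 at 12.7, 3.60 and 11.6 CPM, Gatb at 12.1, 2.11 and 4.004 CPM, and Gatc at 23.2, 10.7 and 14.7 CPM. Unlike Ears2, Gatb was more than 2-fold higher in tumour 1 than in both others. Fars2, Mars2 and Wars2 had fold ranges of 1.88, 1.74 and 2.39.

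Lars2, the mitochondrial leucyl enzyme (chromosome 9, 123366927 to 123462666), stood outside the family. It had 21283, 51442 and 65163 counts, or 308, 6393 and 4141 CPM. Its 79.0, 1642 and 1064 CPM per kb were above every other synthetase gene in each tumour. Through it the summed mitochondrial level was 608, 6586 and 4342 CPM, compared with 300.0, 193 and 201 CPM without it. The cytosolic sum was 1700, 1917 and 1962 CPM, so that cytosolic over mitochondrial sums gave 2.80, 0.291 and 0.452 with Lars2 and 5.67, 9.94 and 9.79 without it.

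Symbols of ribosomal RNA and predicted genes moved in the same order. Rn18s-rs5, a ribosomal RNA symbol, was at 1370, 111400 and 72780 CPM, Gm42418 at 276, 29540 and 7386 CPM, and Gm26917 at 88.3, 32520 and 5010 CPM. In tumour 2 relative to tumour 1 these were 81.3, 107 and 368-fold higher and Lars2 20.8-fold, and in tumour 3 relative to tumour 1 they were 53.1, 26.7 and 56.7-fold higher and Lars2 13.5-fold. Of the 31-base words of Lars2, 0.923% occur in annotated transcripts of other genes. Rn18s-rs5 was not matched by symbol in that annotation, so this share may not cover its sequence. The part of ribosomal RNA reads in the Lars2 counts was not tested.

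**Figure D3:**
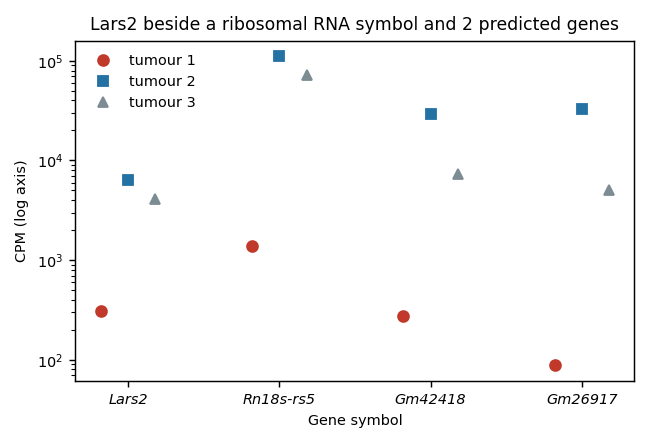
CPM (log axis) of Lars2 and of the ribosomal RNA symbol Rn18s-rs5 and the predicted genes Gm42418 and Gm26917, with 1 point per tumour. For all 4 symbols tumour 1 is lowest, at 308 CPM for Lars2, and tumour 2 highest, at 6393 CPM.

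Counted over the family, 18 of 35 members (51.4%) had a highest tumour at least 2-fold above the lowest, compared with 65.9% of all genes past the filter. At least 4-fold ranges were found for 8 of 35 (22.9%), compared with 30.0%. The median SD of log2 CPM was 0.50 for cytosolic and 0.64 for mitochondrial members, and 0.72 for all genes. With tumour 1 left out, that is within lane 5, 2 of 35 members (5.71%) were at least 2-fold apart, compared with 16.7% of genes, and these were Gars and Yars2, both higher in tumour 3. Differences beyond counting noise were found for 33 of 35 members by the chi-square test, a share of 94.3% against a background of 94.2%, so the share was that of the background. That test compares these libraries and not conditions.

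Tumour 1 was at least 2-fold above both others for 3 of 20 cytosolic and 6 of 15 mitochondrial members, together 25.7% where 22.1% of all genes were. Those above were Dars, Gars, Hars, Hars2, Iars2, Nars2, Rars2, Vars2 and Yars2. It was at least 2-fold below both for 3 cytosolic members, Cars, Farsa and Sars, and 1 mitochondrial member, Lars2, together 11.4% where 20.7% of all genes were. By 4-fold it was above both for Gars, Iars2 and Yars2 (6.05% of all genes) and below both for Cars, Farsa and Lars2 (8.21% of all genes). Tumour 2 was at least 2-fold below both others for Gars and Yars2 (7.14% of all genes) and above for none (5.43% of all genes), and tumour 3 was apart in this sense for none (0.865% of all genes above and 1.35% below). The median difference of tumour 1 from the mean of the others was 0.31 on the log2 scale for cytosolic, 0.70 for mitochondrial and 0.11 for all genes. Between compartments this difference was not tested.

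Tumour 3 exceeded tumour 2 in CPM for 18 of 20 cytosolic and 9 of 15 mitochondrial members, compared with 51.6% of all genes. The median log2 difference was 0.33, 0.21 and 0.03 in the same order. With library totals in place of TMM, tumour 3 exceeded tumour 2 for 18 of 20 and 13 of 15 members and for 71.5% of all genes. Sars and Farsa were the cytosolic exceptions, and they were also among the 3 that tumour 1 had lowest by over 2-fold.

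Tumour 1 had relatively more counts from genes of low GC content, and the same was seen within the family. Across the 35 members the Spearman correlation of the tumour 1 difference with transcript GC content was -0.39, and across 12343 genes -0.30, a description over genes that are not independent and share the same libraries. With a trend on GC content and length removed, all 9 members above and all 4 below in tumour 1 remained so, though single values moved both ways. Sars2 moved most and changed sign, at 0.82 in place of -0.24. Aars2 was at 1.09 in place of 0.36 and Vars2 at 1.90 in place of 1.46, while Eprs was at 0.44 in place of 1.21 and Iars2 at 1.59 in place of 2.23.

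**Figure D4:**
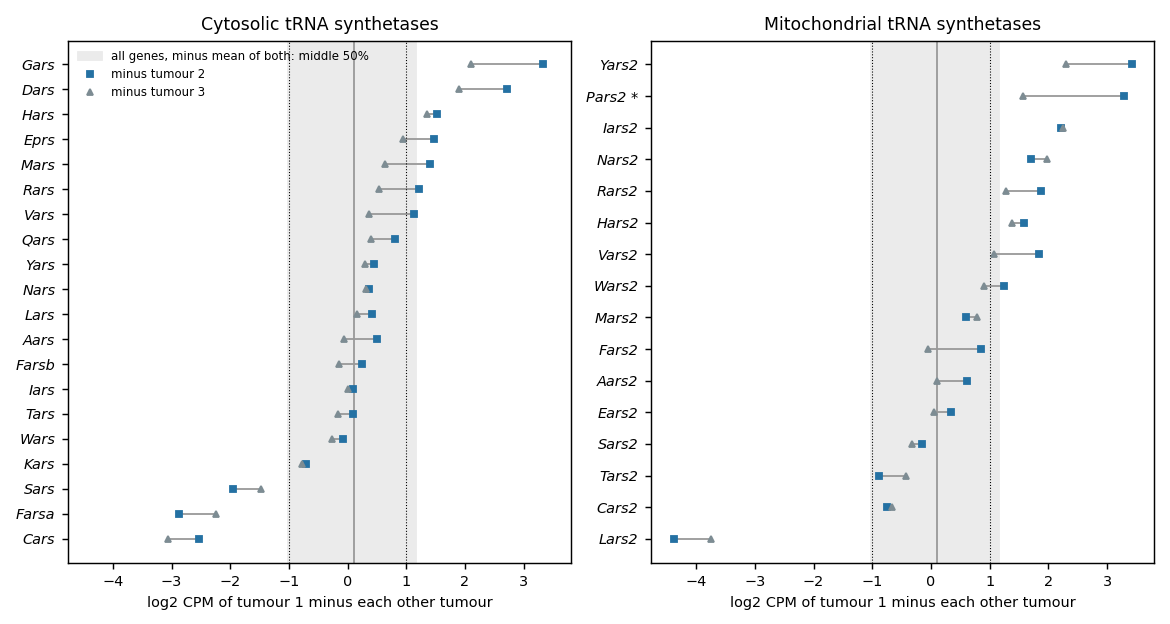
Difference in log2 CPM between tumour 1 and each other tumour for every synthetase gene, with squares for tumour 2 and triangles for tumour 3. Dotted lines mark 2-fold, and the grey band and line are the middle 50% and the median (0.11) of all genes past the filter for another quantity, tumour 1 minus the mean of the others. An asterisk marks Pars2, which did not pass the filter. Gars leads the cytosolic and Yars2 the mitochondrial panel on the right, and Cars, Farsa and Lars2 lie farthest left.

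Genes of related steps lay on both sides of the other tumours. Of 23 other aminoacylation and tRNA genes past the filter (of 24), 7 were at least 2-fold above (30.4%, against 22.1% of all genes) and 4 below (17.4%, against 20.7%) in tumour 1. The tRNA-delivering elongation factor Eef1a1 was at 6450, 568 and 1234 CPM, Eef1b2 at 674, 611 and 940.1 CPM, and the tRNA splicing gene Tsen34 at 111, 282 and 235 CPM. Of 27 amino acid response genes past the filter (of 28), 7 were above (25.9%) and 5 below (18.5%), shares close to those of all genes, with a median difference of 0.17 beside 0.11 for all genes.

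Atf4 itself was at 279, 273 and 391 CPM. Cebpb, a partner in the element, was at 196, 435 and 525 CPM, the serine pathway gene Psat1 at 159, 17.5 and 41.7 CPM, and the mitochondrial folate gene Shmt2 at 71.9, 399 and 397 CPM. Psat1 and Shmt2 thus went in opposite directions, as Gars and Sars did. Of the eIF2alpha kinases, Gcn2 (Eif2ak4) was at 14.1, 6.96 and 6.55 CPM, Eif2ak2 at 15.3, 35.3 and 37.0 CPM, Eif2ak1 at 44.9, 36.7 and 35.6 CPM, and Eif2ak3 at 17.0, 10.6 and 10.9 CPM.

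**Figure D5:**
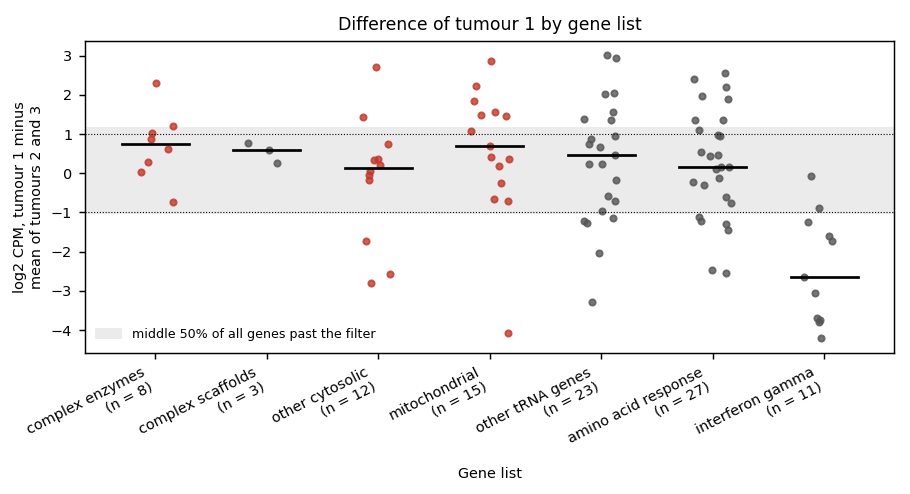
Difference in log2 CPM between tumour 1 and the mean of tumours 2 and 3 by gene list, with 1 point per gene past the filter, a black bar at the list's median, dotted lines at 2-fold and a grey band for the middle 50% of all genes. Synthetase and amino acid response genes spread to both sides of 0, while the interferon gamma list has a median of -2.65.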

How the data were processed

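RNA of 3 tumours was sequenced as paired-end reads of 50 bp from Illumina TruSeq mRNA libraries, per the labels' protocols. The deposited values are Salmon estimated counts per gene symbol, per the file headers, unscaled for depth or length. STAR, SAMtools and Picard and the build mm10 are named in the submitters' processing notes. Their versions, the annotation and the strandedness were not given in the sources used here, so antisense and overlapping genes cannot be told apart.

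Estimated counts were rounded. Genes were filtered with filterByExpr (edgeR 4.0.16 in R 4.3.3, minimum count 10 and minimum total 15), and TMM factors were 1.48, 0.722 and 0.936. Log2 CPM used a prior count of 2. Lengths, positions and GC content came from GENCODE M21 (GRCm38), matched by symbol for 45213 symbols. Each gene's counts were tested against scaled library totals by chi-square, Benjamini-Hochberg adjusted at 0.05, after a check on simulated data. Poisson intervals are 95% and cover counting error only. The fold rule is 2-fold against both other tumours.

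Members and lists were chosen with earlier results of these data known. Values by tumour were given for the 6 cytosolic and 4 mitochondrial members highest per kb, the 3 of widest and narrowest range in each compartment, those apart in a tumour, Gars, Kars and Pars2, and, of the tRNA, amino acid response and interferon lists, the 3 highest genes and the widest. The same rule was meant for the cell type markers, which are given as sums and medians instead. Other members are given in addition. A comparison of protein sequences was planned and is not reported here. Alternatives were DESeq2 1.42.0 size factors, library totals, upper quartile scaling, other filters, prior counts, lengths and thresholds, removal of the GC and length trend, and each tumour left out.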

Additional observations from a re-analysis of the deposited data

How the results depend on the processing

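No paired analysis was possible because the labels give 1 group. All 9 members above and 4 below in tumour 1 kept their place under the scaling, filter, prior count and trend alternatives, except that library totals kept 3 of the 4 below. The 2.55 between compartments (log2 per kb) kept its sign throughout, and moved to 3.19 with median transcript lengths. Library totals put the median of all genes in tumour 1 at 0.95 in place of 0.11. Under them 29 members were at least 2-fold apart, 8 cytosolic members were above in tumour 1 and 8 members apart in tumour 2, the compartment medians were 1.16 and 1.53 in tumour 1 and -1.04 and -1.41 in tumour 2 (cytosolic, mitochondrial), and the median SDs were 0.85 and 1.16. Shares of all genes for these counts are not given, so they cannot be read as a result about the members.

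The mitochondrial median of tumour 1 (0.70) was 0.60 with DESeq2 size factors, 0.80 with upper quartile scaling, 0.99 with no filter, 0.64 with the mean CPM filter of 5, 0.82 without the GC and length trend, 0.57 as a mean, and 0.89 without Lars2 or without the 5 members that share most words. The last and the settings without Lars2 were chosen after seeing the data. The cytosolic median of tumour 2 (-0.33) was -0.24, -0.41 and -0.42 with DESeq2 factors, upper quartile scaling and no filter. At 4-fold, 8 members were apart over all tumours, 1 cytosolic and 2 mitochondrial members were above in tumour 1, and 0 were apart in tumour 2. At 1.5-fold, 5 cytosolic members were above and 2 mitochondrial below in tumour 1, and 11 members were apart in tumour 2. The share of all genes at 1.5-fold is not given. Lars2 was the only mitochondrial member below in tumour 1, so the count without it is 0 by construction.

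With each tumour left out in turn, the compartment difference was 2.42 to 2.78, members at least 2-fold apart 2 to 19 and chi-square calls 22 to 32. Only 2 tumours then remain, so each is set against 1 other, a looser rule than that of the main counts. The cytosolic median lay at 0.19 to 0.44 in tumour 1, -0.44 to -0.35 in tumour 2 and -0.19 to 0.35 in tumour 3, and the mitochondrial at 0.82 to 1.05, -1.05 to -0.22 and -0.82 to 0.22. The tumour 3 medians were positive against tumour 2 alone and negative against tumour 1 alone. Members apart numbered 2 to 19 in tumour 2 and 2 to 14 in tumour 3, and above in tumour 1 from 3 to 7 cytosolic and 7 to 8 mitochondrial. Below in tumour 1 there were 3 cytosolic and 1 mitochondrial. With tumour 1 left out, 16.7% of all genes were at least 2-fold apart. For the other counts shares of all genes are not given, so they cannot be read as a result about the members. Median SDs were 0.31 to 0.69 and 0.25 to 1.01. The median biological coefficient of variation of members was 57.2% (58.8% for all genes) and 30.6 to 77.1% with 1 tumour left out, lowest without tumour 1. The cause of these changes was not tested. Depth limits Pars2, Yars2 and Nars2 in tumour 2, at 6, 13 and 21 counts.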
